A study of Mus musculus with 9 samples.

Results

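Potassium channel genes were taken as every gene symbol that starts with Kcn, which gave 95 of the 22609 genes counted. They were followed through 9 RNA sequencing libraries, 3 each from L3-L5 dorsal root ganglia (DRG, which hold the cell bodies of sensory neurons), lumbar spinal cord and hind paw punch biopsies of male C57 mice aged 8 to 12 weeks. All 3 tissues came from mice given the chemotherapy drug paclitaxel (PTX), 2 mg/kg intraperitoneally in 2 injections, and an LTβR antagonist, which blocks the lymphotoxin-beta receptor, 15 µg into the hind paw and 15 µg intrathecally. Tissue was taken 6 days after the last paclitaxel dose. Titles place the antagonist on days 1 and 4, whereas the series text puts the first dose in the interval between both paclitaxel injections and the second 1 day afterwards. Because every library carries both agents, and the control IgG animals are not analysed here, the comparisons below are between tissues and no effect of either agent was tested. Whether the libraries of a tissue came from different animals is not stated, and p-values then measure only how far these libraries spread, which may be technical.

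Potassium channels let potassium leave the cell and so hold the resting potential, end the action potential and space out firing. The voltage-gated Kv subunits open on depolarisation, calcium- and sodium-activated channels open when those ions rise in the cell, inward rectifiers (Kir) pass current mainly near rest, and two-pore domain (K2P) channels carry background leak. In sensory neurons of the DRG these currents set the threshold for touch, itch and pain signals, and in the spinal cord astrocytes use inward rectifiers to take up potassium.

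Depth was between 15537545 and 23229724 reads in genes per library, and at these depths 3 reads correspond to 0.129 to 0.193 CPM. Levels below are in CPM (reads of a gene scaled to a common library size), per library in the order 1, 2, 3, or as mean ± SD (n = 3). Differences are log2 fold changes ± their standard error, and called means a Benjamini-Hochberg adjusted p under 0.05 in edgeR's quasi-likelihood test over 16091 genes. In these bulk samples fewer cells of a type and less RNA per cell cannot be told apart. Sums of the sensory neuron, astrocyte and keratinocyte markers were highest in DRG, spinal cord and paw in that order. The 10 sensory neuron markers summed to 4262 to 5096 CPM (DRG), 40.6 to 49.1 (spinal cord) and 4.06 to 4.94 (paw), and none was at 0 reads in any tissue. The 6 astrocyte markers summed to 60.6 to 71.8 CPM (DRG), 3420 to 3701 (spinal cord) and 155 to 192 (paw). The 7 keratinocyte markers summed to 13.9 to 26.5 CPM (DRG), 31.9 to 36.2 (spinal cord) and 32952 to 49849 (paw). Some markers did not separate the tissues. The 5 motor neuron markers summed to 138 to 194 CPM (DRG), 112 to 149.6 (spinal cord) and 0.419 to 1.48 (paw), and 1 of them, Isl2, was at 163 ± 28 (DRG), 2.33 ± 0.199 (spinal cord) and 0.0804 ± 0.0697 CPM (paw). The astrocyte marker Gjb6 was at 7.67 ± 2.58 (DRG), 131 ± 11.1 (spinal cord) and 129.7 ± 19.3 CPM (paw), and libraries of the microglia marker Tmem119 at 2.28 to 3.13 CPM (DRG), 17.2 to 21.4 (spinal cord) and 17.7 to 22.6 (paw). Libraries DRG 1 and DRG 2 stood apart in the 7 skeletal muscle markers, with 609 and 958 CPM beside 32.2 in DRG 3. Spinal cord 3 stood apart in the 6 Schwann and satellite glia markers, with 8476 CPM beside 3089 and 3279 in spinal cord 1 and 2.

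Together the 95 genes summed to 5265 ± 396 (DRG), 6737 ± 354 (spinal cord) and 690.3 ± 49.3 CPM (paw). Both nervous tissues therefore lay well above paw, and their libraries did not overlap those of paw. A mean of 5 CPM was reached by 54 genes (DRG), 53 (spinal cord) and 32 (paw). The filter on low counts passed 84 of the 95, and the counts below describe those 84. Between DRG and spinal cord 67 were called (79.8%, where 59.6% of all genes were), 35 higher and 32 lower in DRG, which is 41.7% and 38.1% of those tested, where 29.0% and 30.6% of all genes were called. Between DRG and paw 78 were called (92.9%, where 80.5% of all genes were), 61 higher and 17 lower in DRG, or 72.6% and 20.2%, where 40.8% and 39.7% of all genes were called. Between spinal cord and paw 77 were called (91.7%, where 81.6% of all genes were), 59 higher and 18 lower in spinal cord, or 70.2% and 21.4%, where 41.7% and 39.9% of all genes were called. The median log2 fold change of the 84 was 0.24 for DRG over spinal cord, 3.21 for DRG over paw and 3.03 for spinal cord over paw, beside −0.02, 0.02 and 0.03 for all genes. The last pair of comparisons shares the paw libraries. Setting genes with no paw read at their lower bound left these medians as they were.

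**Figure D1:**
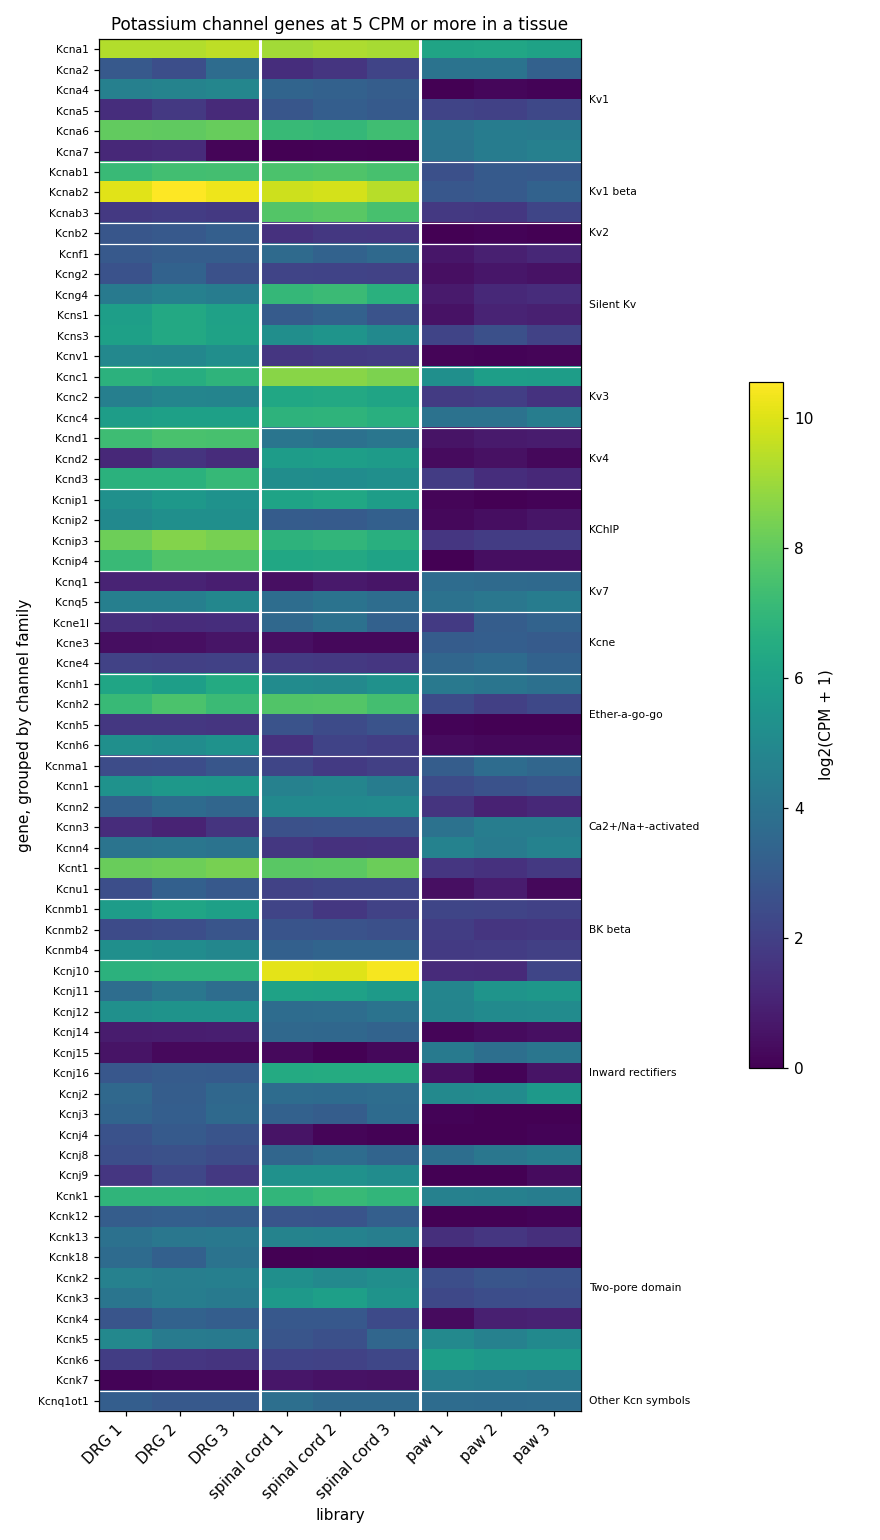
Levels of 67 potassium channel genes that reached a mean of 5 CPM in any tissue, as log2(CPM + 1), with 1 column per library and rows grouped by channel family. Kcnab2, Kcna1 and Kcnj10 are among the brightest rows in DRG or spinal cord, and a minority of rows, such as Kcna7, Kcnj15, Kcnk6 and Kcnk7, are brightest in paw.

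A gene was called highest in a tissue where it was called higher there than in both others. In DRG 28 of the 84 were called highest, in spinal cord 26 and in paw 13, where 15.9%, 19.5% and 32.4% of all genes were. Lowest in paw were 54 of the 84 (64.3%), where 32.9% of all genes were. Families divided between the nervous tissues in different ways. Of the 4 Kcnip genes 3 were called highest in DRG and 1 in spinal cord, and of the 15 inward rectifiers 2 (DRG), 7 (spinal cord) and 3 (paw).

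**Figure D2:**
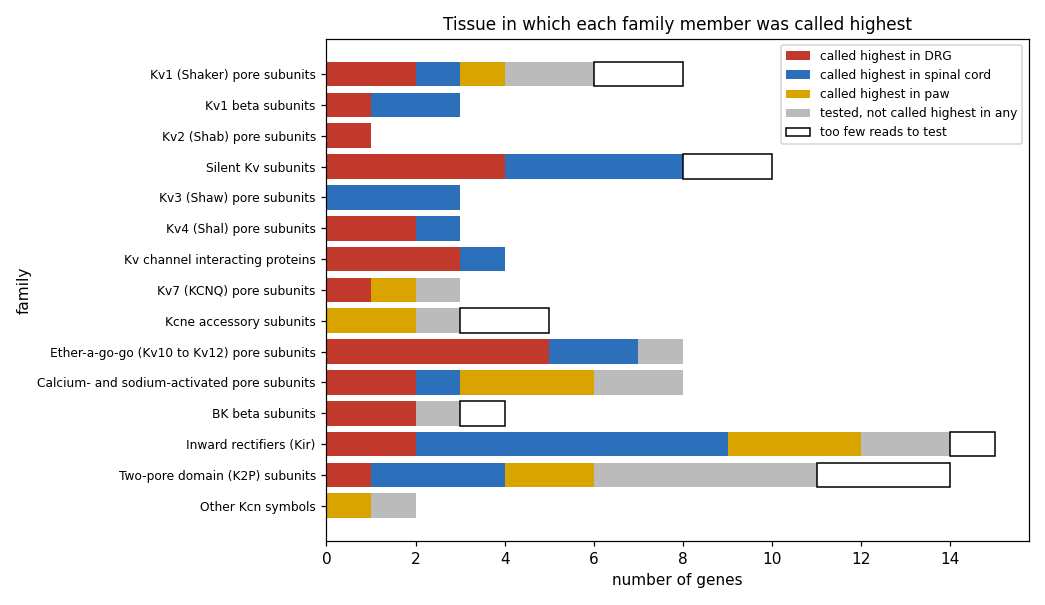
Number of genes in each family, over 91 genes, called highest in DRG (red), spinal cord (blue) or paw (yellow), tested but not called highest in any tissue (grey), or with too few reads to test (white). The inward rectifier bar is blue for 7 of 15.

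Kv1 subunits, the Shaker relatives that clamp axons and their branches near rest, had the most reads in Kcna1 in all 3 tissues. Kcna1 had 647, 644 and 716 CPM across DRG, 538, 604 and 567 across spinal cord, and 70.0, 74.1 and 66.3 across paw. Its DRG libraries all lay above its spinal cord libraries, but the difference of 0.23 ± 0.10 was not called (adjusted p = 0.0588). The adjusted p was 0.0479 when DRG 2 was left out, 0.0191 by DESeq2 and 0.0268 by limma-voom, and each of these makes the call. In DRG and spinal cord Kcna6 was next. It stood at 260.4 ± 13.7 (DRG), 140.3 ± 15.5 (spinal cord) and 19.3 ± 2.2 CPM (paw), and DRG exceeded spinal cord by 0.89 ± 0.11 and paw by 3.76 ± 0.12. Opposite-strand exons of Gm26673 cover 39.6% of its exon bases in a later gene annotation, and the strand setting of the counting is not stated, so its level is uncertain. Per kilobase of exon Kcna1 stood at 140.0 CPM per kb (DRG), 119 CPM per kb (spinal cord) and 14.7 CPM per kb (paw), and Kcna6 at 43.8 CPM per kb, 23.6 CPM per kb and 3.24 CPM per kb. Kcna4, whose channels inactivate fast, had 23, 25.6 and 27.7 CPM across DRG, 9.45, 8.72 and 7.75 across spinal cord, and 0, 0.123 and 0.0589 across paw, so that no 2 tissues overlapped. DRG exceeded spinal cord by 1.56 ± 0.16 (adjusted p = 6.64e-06), and against the 3 reads in all of paw DRG had a ratio of 422 (95% counting interval 144 to 2050).

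Kcna2, the usual partner of Kcna1 beside the nodes of myelinated axons, was highest by mean in paw. It had 6.66, 4.73 and 12.1 CPM across DRG, 1.6, 2.1 and 3.5 across spinal cord, and 15, 15.1 and 8.78 across paw. The gene models of the counting are not stated, and their part in the Kcna2 level was not tested. Paw lay above spinal cord, with spinal cord over paw at −2.44 ± 0.41, and DRG above spinal cord by 1.71 ± 0.41. The DRG libraries overlapped those of paw and that difference was not called (adjusted p = 0.0911). It was called when DRG 3 was left out (−1.18, adjusted p = 0.00814), when paw 3 was (−0.95, adjusted p = 0.0466) and by limma-voom (adjusted p = 0.0394). Kcna5 was highest in spinal cord, at 1.8 ± 0.54 (DRG), 6.99 ± 0.963 (spinal cord) and 3.48 ± 0.401 CPM (paw). Kcna7, a subunit known from skeletal and heart muscle, had 1.34, 1.45 and 0.099 CPM across DRG, 0, 0.0467 and 0 across spinal cord, and 15.7, 20.5 and 23.5 across paw. Paw was far above both nervous tissues, and its fold over spinal cord, where 1 read was found, was a ratio of 1170 (95% counting interval 210.0 to 46400). Within DRG the libraries with Kcna7 reads in number, DRG 1 and DRG 2, were also the libraries high in the 7 skeletal muscle markers (DRG 32.2 to 958 CPM, spinal cord 13.8 to 61.5 CPM, paw 14563 to 18148 CPM). No muscle marker was at 0 reads in any tissue, and their part in the Kcna7 level was not tested. Over spinal cord DRG had a ratio of 57.6 (95% counting interval 9.97 to 2310), a call that was lost with DRG 1 and 2 left out (adjusted p = 0.23). Too few reads to test were found for Kcna3, with 2 (DRG), 2 (spinal cord) and 18 reads (paw), and for Kcna10, with 18 (DRG), 6 (spinal cord) and 1 reads (paw).

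The beta subunits that dock on Kv1 channels summed to 1430 CPM (DRG), 1221 (spinal cord) and 16.3 (paw). Kcnab2 had 1083, 1497 and 1234 CPM across DRG, 869, 924 and 676 across spinal cord, and 6.29, 6.91 and 8.89 across paw, and DRG exceeded spinal cord by 0.63 ± 0.17 (adjusted p = 0.00682). Its mean level was 24.2% of the summed potassium channel CPM in DRG, the largest share of any of the 95 there, and 12.2% in spinal cord. Kcnab3, at 2.41, 2.65 and 2.33 CPM across DRG, 213, 229 and 179 across spinal cord, and 2.39, 2.28 and 3.59 across paw, set spinal cord apart from both other tissues. DRG over spinal cord was −6.39 ± 0.17 (adjusted p = 3.18e-10) and DRG over paw was not called (adjusted p = 0.45). Kcnab1 stood at 156 ± 13.8 (DRG), 190.2 ± 10.4 (spinal cord) and 6.2 ± 1.06 CPM (paw). Its small difference between DRG and spinal cord, −0.28 ± 0.11 (adjusted p = 0.0488), was lost without any one of DRG 1, 2 or 3, spinal cord 1 or 2, or paw 2 or 3 (adjusted p = 0.0544 to 0.178).

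Kcnb2, a Kv2 subunit that carries slow delayed rectifier current in neurons, was highest in DRG. It was at 6.94 ± 1.04 CPM (DRG) and 2.09 ± 0.209 CPM (spinal cord), a difference of 1.73 ± 0.23 (adjusted p = 4.93e-05), and had 1 read in all of paw.

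Silent Kv subunits form no channel alone and alter the Kv2 channels they join. Of 10 genes 8 were tested, and 4 were called highest in DRG and 4 in spinal cord, where 15.9% and 19.5% of all genes were. Kcns1 had 59.9, 80.7 and 64.7 CPM across DRG, 7.05, 8.68 and 5.45 across spinal cord, and 0.419, 1.05 and 0.883 across paw, and DRG exceeded spinal cord by 3.27 ± 0.20 (adjusted p = 1.21e-07). Kcnv1 had 29.3, 28.3 and 35.8 CPM across DRG, 2.2, 2.43 and 2.7 across spinal cord, and 0.12, 0.0617 and 0.118 across paw, and DRG exceeded spinal cord by 3.67 ± 0.15 (adjusted p = 4.56e-09). In both genes every DRG library was above every library of the other tissues. Kcns3 was at 71 ± 10.4 (DRG), 36.7 ± 5.9 (spinal cord) and 3.92 ± 0.943 CPM (paw) and Kcng2 at 6.55 ± 2.19 (DRG), 3.37 ± 0.146 (spinal cord) and 0.442 ± 0.102 CPM (paw), also highest in DRG. The Kcng2 call between DRG and spinal cord was lost with DRG 1 and 2 left out (0.63, adjusted p = 0.104). Kcng4 was called highest in spinal cord, where it had the most CPM of these genes, with 19.1, 23 and 20.4 CPM across DRG, 129.5, 145 and 102 across spinal cord, and 0.718, 1.3 and 1.53 across paw. DRG over spinal cord was −2.59 ± 0.17 (adjusted p = 1.47e-07). Kcnf1 was at 7.31 ± 0.455 (DRG), 10.6 ± 1.37 (spinal cord) and 0.90 ± 0.35 CPM (paw). Its call for DRG over spinal cord (−0.53 ± 0.19, adjusted p = 0.0294) was lost without any one of DRG 1, 2 or 3 or spinal cord 1 or 3 (adjusted p = 0.0511 to 0.101). Kcng1 and Kcns2 were under 5 CPM in every tissue and called highest in spinal cord. Leaving out any one of DRG 1, 2 or 3 or spinal cord 1 or 2 ended the DRG over spinal cord call of Kcng1 (−0.68 ± 0.23, adjusted p = 0.0231, then 0.0514 to 0.0834) and of Kcns2 (−0.65 ± 0.23, adjusted p = 0.0294, then 0.0606 to 0.101). Kcng3, with 37 (DRG), 3 (spinal cord) and 16 reads (paw), and Kcnv2, with 5 (DRG), 3 (spinal cord) and 2 reads (paw), could not be tested.

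Kv3 subunits form fast channels that let neurons fire at high rates, and Kcnc1, Kcnc2 and Kcnc4 were each called highest in spinal cord and lowest in paw. Kcnc1 had 109.5, 95.5 and 116 CPM across DRG, 402, 407 and 356 across spinal cord, and 36.6, 58.8 and 57.8 across paw. Every spinal cord library lay above every DRG library, and DRG over spinal cord was −1.86 ± 0.16 (adjusted p = 2.14e-06). Kcnc2 stood at 25.3 ± 2.17 (DRG), 76.5 ± 5.99 (spinal cord) and 2.43 ± 0.493 CPM (paw), and DRG over spinal cord was −1.60 ± 0.12. Kcnc4 stood at 60.9 ± 2.85 (DRG), 109 ± 9.11 (spinal cord) and 16.9 ± 3.58 CPM (paw), with −0.85 ± 0.13. Per kilobase of exon Kcnc1 stood at 11.3 CPM per kb (DRG), 41.1 CPM per kb (spinal cord) and 5.4 CPM per kb (paw).

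Kv4 subunits carry the fast A-type current that delays firing below threshold, and here they exchanged places between the nervous tissues. Kcnd1 had 152, 183 and 175 CPM across DRG, 16.1, 14.2 and 16.9 across spinal cord, and 0.479, 0.679 and 0.766 across paw, and DRG exceeded spinal cord by 3.44 ± 0.12 (adjusted p = 1.16e-09). Kcnd2 had 1.34, 2.03 and 1.53 CPM across DRG, 55.5, 59.9 and 54.4 across spinal cord, and 0.239, 0.37 and 0.177 across paw, and DRG over spinal cord was −5.11 ± 0.16 (adjusted p = 5.86e-10). The libraries of DRG and spinal cord did not overlap for either gene. Kcnd3, at 115 ± 16 (DRG), 35.3 ± 1.21 (spinal cord) and 1.84 ± 0.701 CPM (paw), followed Kcnd1 with 1.71 ± 0.15. Per kilobase of exon the leading Kv4 gene was Kcnd1 in DRG, at 32.2 CPM per kb, and Kcnd3 there stood at 12 CPM per kb. In spinal cord Kcnd2 led with 11 CPM per kb, against 3.68 CPM per kb for Kcnd3 and 2.98 CPM per kb for Kcnd1.

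Kcnip genes encode calcium-binding proteins that bring Kv4 channels to the membrane and tune them. Kcnip3, also known as the repressor DREAM, had 299, 387 and 335 CPM across DRG, 113, 123 and 99.1 across spinal cord, and 2.21, 2.72 and 2.65 across paw, and DRG exceeded spinal cord by 1.61 ± 0.12 (adjusted p = 4.34e-07). Kcnip4 had 142, 202 and 198 CPM across DRG, 76.5, 81.5 and 68.5 across spinal cord, and 0, 0.309 and 0.294 across paw, with a difference of 1.26 ± 0.18 (adjusted p = 0.000154). Kcnip2, at 35.5 ± 3.46 (DRG), 7.59 ± 0.691 (spinal cord) and 0.339 ± 0.177 CPM (paw), was also highest in DRG (2.22 ± 0.15). By the sign of DRG over spinal cord these 3 went with Kcnd1 and Kcnd3, and Kcnip1 with Kcnd2. The sizes of the last 2 were unlike, at −0.68 for Kcnip1 and −5.11 for Kcnd2, and no pairing of subunits was tested. Kcnip1 had 37.8, 48.7 and 40.9 CPM across DRG, 67.9, 77.8 and 58 across spinal cord, and 0.12, 0 and 0.0589 across paw, and DRG over spinal cord was −0.68 ± 0.14 (adjusted p = 0.00177). Over the 3 reads in all of paw, spinal cord had a ratio of 1140 (95% counting interval 390.0 to 5530). Kv4 genes summed to 287 CPM (DRG), 108 (spinal cord) and 2.75 (paw), and Kcnip genes to 599, 263 and 3.13 CPM.

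**Figure D3:**
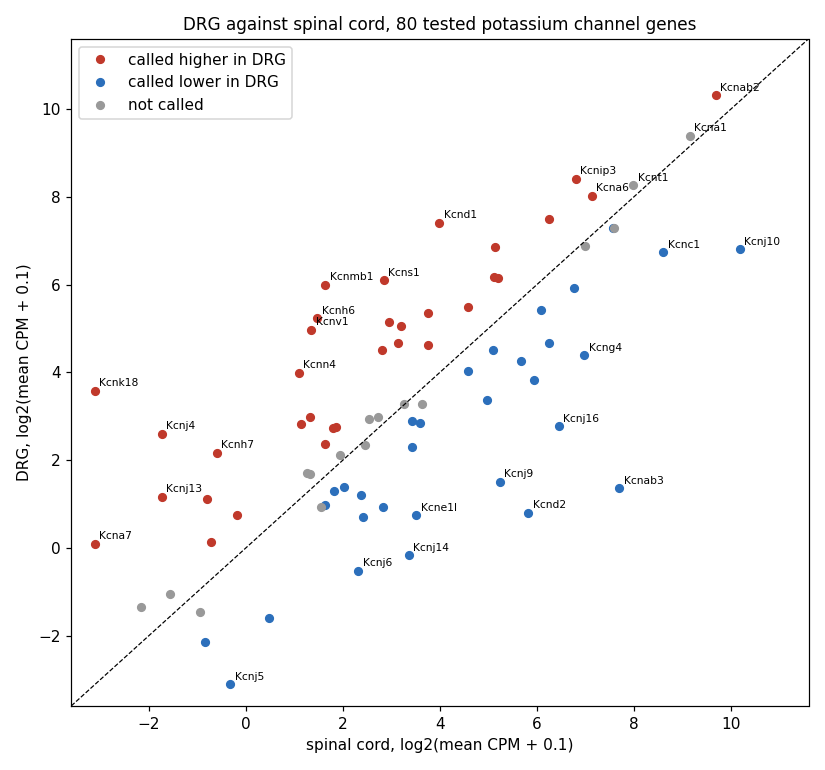
Mean level in DRG against mean level in spinal cord for 80 tested genes, both as log2(mean CPM + 0.1), coloured by the call for DRG over spinal cord, with the dashed line at equal levels. Kcnk18, Kcnmb1, Kcnd1 and Kcns1 lie far above the line, and Kcnab3, Kcnd2, Kcnj10 and Kcnj16 far below it.

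Kv7 subunits form the M-current, which restrains repeated firing in neurons, and channels of epithelia and heart. Kcnq3, a neuronal subunit, was low, at 1.82 ± 0.463 CPM (DRG) and 2.84 ± 0.813 CPM (spinal cord), and had no read in paw, which puts DRG at least 30.0-fold and spinal cord at least 46.3-fold higher than paw. Kcnq5 was at 24.6 ± 3.59 (DRG), 13.4 ± 1.33 (spinal cord) and 17.5 ± 3.07 CPM (paw), and DRG exceeded spinal cord by 0.87 ± 0.15 (adjusted p = 0.000434). DRG also exceeded paw by 0.49 ± 0.15 (adjusted p = 0.0107), but not when DRG 3 was left out (adjusted p = 0.0549). Spinal cord over paw, −0.38 ± 0.15 (adjusted p = 0.0368), was not called without any one of spinal cord 1, spinal cord 3 or paw 3 (adjusted p = 0.0647 to 0.17) or by limma-voom (adjusted p = 0.0526).

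Kcnq1, the Kv7 subunit of heart and epithelia, had 1.07, 1.06 and 0.842 CPM across DRG, 0.35, 0.653 and 0.517 across spinal cord, and 12.5, 11.4 and 11 across paw, with every paw library above every other. DRG over paw was −3.54 ± 0.21 (adjusted p = 1.62e-08). DRG over spinal cord, 0.96 ± 0.27 (adjusted p = 0.0101), was not called with DRG 1 and 2 left out (adjusted p = 0.18). Kcne subunits, single-span partners that alter Kv7 and other channels, were called highest in paw for 2 of the 3 tested, where 32.4% of all genes were. Kcne3, which holds Kcnq1 channels open in epithelia, had 0.313, 0.338 and 0.495 CPM across DRG, 0.35, 0.187 and 0.172 across spinal cord, and 7.42, 7.96 and 7.24 across paw, and DRG over paw was −4.29 ± 0.26 (adjusted p = 2.52e-08). Kcne4 was at 3.11 ± 0.0664 (DRG), 2.39 ± 0.21 (spinal cord) and 10.4 ± 1.49 CPM (paw), and DRG over paw was −1.74 ± 0.16. Kcne1l had 1.65, 1.5 and 1.58 CPM across DRG, 10.8, 14.4 and 8.67 across spinal cord, and 2.45, 7.71 and 9.25 across paw. It was called lowest in DRG. Spinal cord over paw was not called (0.80 ± 0.38, adjusted p = 0.0726), except when paw 3 was left out (1.15, adjusted p = 0.0259) or by limma-voom (adjusted p = 0.029). Kcne1 had 0 (DRG), 1 (spinal cord) and 4 reads (paw), and Kcne2 had 4 (DRG), 2 (spinal cord) and 0 reads (paw), too few to test.

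Ether-a-go-go subunits form channels that set the resting potential and firing patterns. All 8 were tested, and 5 were called highest in DRG, where 15.9% of all genes were. Kcnh2, best known for the repolarisation of heart muscle, had the most CPM of them in DRG and spinal cord, with 138, 186 and 144 CPM across DRG, 203, 211 and 166 across spinal cord, and 4.25, 2.96 and 3.89 across paw. DRG and spinal cord overlapped and were not called different (adjusted p = 0.0765), but were called when DRG 2 was left out (−0.45, adjusted p = 0.0126), when spinal cord 3 was (−0.40, adjusted p = 0.0238) and with upper quartile factors (−0.36, adjusted p = 0.0426). Its relative Kcnh6 had 37.5, 33.7 and 41.1 CPM across DRG, 1.8, 3.31 and 2.93 across spinal cord, and 0.239, 0.185 and 0.177 across paw, and DRG exceeded spinal cord by 3.80 ± 0.19 (adjusted p = 1.83e-08). The groups of Kcnh6 did not overlap. Kcnh1 was at 72 ± 13.4 (DRG), 34.3 ± 4.8 (spinal cord) and 16.2 ± 2.3 CPM (paw) and DRG exceeded spinal cord by 1.07 ± 0.16. Kcnh5 went the other way, at 2.21 ± 0.12 CPM (DRG) and 5.07 ± 0.712 CPM (spinal cord) (−1.19 ± 0.23), with 1 read in paw. Kcnh3, Kcnh7 and Kcnh8 were under 5 CPM and highest in DRG, and Kcnh4 was under 5 CPM and highest in spinal cord. The DRG over spinal cord call of Kcnh3 (0.99 ± 0.40, adjusted p = 0.0498) was lost without any one library other than spinal cord 2 (adjusted p = 0.0592 to 0.121), with upper quartile factors (adjusted p = 0.0606) and in DESeq2 (adjusted p = 0.0786). That of Kcnh8 (2.18 ± 0.63, adjusted p = 0.0114) was lost without spinal cord 2 (adjusted p = 0.0522).

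Calcium- and sodium-activated channels brake firing after bursts. Kcnt1, the sodium-activated Slack channel of sensory neurons, had the most CPM of them in DRG and spinal cord, with 285, 301 and 333 CPM across DRG, 232, 235 and 291 across spinal cord, and 2.16, 1.85 and 2.36 across paw. DRG and spinal cord overlapped and narrowly missed the call (0.28 ± 0.11, adjusted p = 0.0503), which was made when DRG 1 was left out (0.33, adjusted p = 0.0468), when spinal cord 3 was (0.40, adjusted p = 0.00457) and by limma-voom (adjusted p = 0.0322). Both nervous tissues lay far above paw, at 7.17 ± 0.16 for DRG and 6.89 ± 0.16 for spinal cord. The small-conductance subunits Kcnn1 to Kcnn3 each led in another tissue. Kcnn1 was highest in DRG, at 44.9 ± 4.27 (DRG), 23.7 ± 3.34 (spinal cord) and 5.31 ± 0.909 CPM (paw). Kcnn2 was highest in spinal cord, at 10.2 ± 1.74 (DRG), 31.2 ± 0.463 (spinal cord) and 1.46 ± 0.532 CPM (paw). Kcnn3 was highest in paw, with 1.52, 1.06 and 1.98 CPM across DRG, 5.1, 5.36 and 5.22 across spinal cord, and 15, 21.2 and 21.1 across paw, and DRG over paw was −3.65 ± 0.22 (adjusted p = 2.41e-08). Kcnn4, the intermediate-conductance channel of red cells, lymphocytes and epithelia, had 15.6, 16.7 and 15.1 CPM across DRG, 2.3, 1.82 and 1.95 across spinal cord, and 24.8, 20.1 and 24.7 across paw. Paw lay above spinal cord, which stood at −3.52 ± 0.15 to paw, and above DRG by less, at −0.56 ± 0.12 for DRG over paw (adjusted p = 0.00142).

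The large-conductance BK channel has 1 pore gene and a set of beta subunits, and pore and betas did not share an order here. The gene models of the counting are not stated, and their part in these levels was not tested. Kcnma1, the pore, was low everywhere and highest in paw, at 5.03 ± 0.919 (DRG), 3.01 ± 0.564 (spinal cord) and 9.98 ± 2.29 CPM (paw). Its DRG over spinal cord call (0.74 ± 0.23, adjusted p = 0.0154) was lost without DRG 3 (0.59, adjusted p = 0.0678) or when spinal cord 2 was left out (0.60, adjusted p = 0.0649), and its DRG over paw call with DRG 1 and 2 left out (−0.70, adjusted p = 0.0697). Kcnmb1, the beta subunit known from smooth muscle, had 55.8, 72.2 and 63.5 CPM across DRG, 3.5, 2.24 and 3.27 across spinal cord, and 3.59, 3.46 and 3.12 across paw. DRG exceeded spinal cord by 4.41 ± 0.17 (adjusted p = 2.37e-09) and paw by 4.23 ± 0.17 (adjusted p = 5.57e-10), and no DRG library overlapped another tissue. The 6 smooth muscle and pericyte markers had sums of 241 to 315 CPM (DRG), 187 to 238 (spinal cord) and 1565 to 1686 (paw). These sums were lowest in spinal cord and highest in paw without overlap, with none of the markers at 0 reads. Single markers differed in direction between DRG and spinal cord. Tagln and Pdgfrb were called higher in DRG, Acta2, Myh11 and Cnn1 were called lower, and Rgs5 was not called. The part of these markers in the Kcnmb1 level was not tested. Kcnmb4, the beta subunit of neurons, was at 33.3 ± 4.02 (DRG), 9.1 ± 0.603 (spinal cord) and 2.7 ± 0.245 CPM (paw), also highest in DRG (1.87 ± 0.13 over spinal cord). Opposite-strand exons cover 20.8% and 10.7% of its exon bases. Kcnmb2 was at 5.0 ± 0.723 (DRG), 5.41 ± 0.425 (spinal cord) and 2.36 ± 0.345 CPM (paw) and was not called between DRG and spinal cord (adjusted p = 0.59). Kcnmb3 had no read in any library. Kcnu1, a channel known from sperm, was at 6.61 ± 1.76 (DRG), 3.5 ± 0.263 (spinal cord) and 0.425 ± 0.288 CPM (paw), and its DRG over spinal cord call (0.91 ± 0.28, adjusted p = 0.0137) was lost without DRG 2 (0.72, adjusted p = 0.0583) and with DRG 1 and 2 left out (adjusted p = 0.0678). Kcnt2 stayed under 5 CPM.

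Inward rectifiers summed to 209.6 ± 5.36 CPM (DRG), 1410 ± 157 (spinal cord) and 145 ± 28.7 (paw). Most of the spinal cord sum was Kcnj10, the channel by which astrocytes and satellite glia take up potassium, with 108, 113 and 113 CPM across DRG, 1094, 1048 and 1346 across spinal cord, and 1.44, 1.36 and 3.59 across paw. No DRG library overlapped a spinal cord library, and DRG over spinal cord was −3.38 ± 0.24 (adjusted p = 5.85e-07). Its partner in glia, Kcnj16, had 6.26, 7.1 and 6.83 CPM across DRG, 85.9, 88 and 87.8 across spinal cord, and 0.359, 0.0617 and 0.471 across paw, and DRG over spinal cord was −3.70 ± 0.16 (adjusted p = 5.11e-09). Per kilobase of exon Kcnj10 led all 95 genes in spinal cord, at 215 CPM per kb, with Kcnj16 at 22.2 CPM per kb. Between DRG and spinal cord the 6 astrocyte markers moved the same way, at 60.6 to 71.8 CPM (DRG) and 3420 to 3701 (spinal cord), none at 0 reads. In paw they summed to 155 to 192 CPM, above DRG, but Gjb6 alone had a mean of 129.7 CPM in paw and 7.67 in DRG. Gfap, Aqp4, Slc1a2, Slc1a3 and Aldh1l1 each had a lower mean in paw than in DRG, as did Kcnj10 and Kcnj16. The 6 oligodendrocyte markers summed to 1.25 to 2.03 CPM (DRG), 1541 to 1898 (spinal cord) and 4.32 to 5.77 (paw). The part of either marker list in these levels was not tested. Kcnj10 was highest in spinal cord 3, in which the Schwann and satellite glia markers were also highest of that tissue. The astrocyte markers were lowest in that same library, at 3420 CPM. In DRG the Schwann and satellite glia markers summed to 20569 to 27429 CPM, and DRG 1, highest in them, was lowest in Kcnj10.

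The G protein-gated subunits Kcnj3, Kcnj5, Kcnj6 and Kcnj9, through which opioid and other receptors quiet neurons, divided by gene. Kcnj9 had 2.14, 3.72 and 2.38 CPM across DRG, 39.2, 39 and 34.3 across spinal cord, and 0, 0 and 0.236 across paw, and DRG over spinal cord was −3.77 ± 0.26 (adjusted p = 3.8e-07). Kcnj3 had 9.65, 7.77 and 11.2 CPM across DRG, 8.55, 7.74 and 12.1 across spinal cord, and 0.0599, 0 and 0 across paw, with overlapping nervous tissues that were not called different (adjusted p = 0.951). Over the single read in paw, DRG had a ratio of 476 (95% counting interval 85.1 to 18800). Exons of Gm26794 on the opposite strand cover 31.1% of its exon bases. Kcnj6 was under 5 CPM and highest in spinal cord, at 3.9, 2.05 and 8.67 CPM across its libraries. Kcnj5 had 1 (DRG), 42 (spinal cord) and 2 reads (paw).

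The pore subunits Kcnj11 and Kcnj8 of the ATP-sensitive channel, which couples metabolism to excitability, were higher in spinal cord and paw than in DRG. Kcnj11 had 14.2 ± 2.65 (DRG), 61 ± 7.05 (spinal cord) and 39 ± 11 CPM (paw), and DRG was lower than spinal cord by −2.11 ± 0.21 and than paw by −1.46 ± 0.21, both as signed log2 fold changes. Kcnj8, the subunit of vessels and pericytes, was at 4.82 ± 0.403 (DRG), 10.6 ± 1.36 (spinal cord) and 16.8 ± 3.62 CPM (paw) and called highest in paw. Of the sulfonylurea receptors that complete these channels, Abcc8 was at 18.2 ± 2.76 (DRG), 39.4 ± 7.91 (spinal cord) and 0.984 ± 0.386 CPM (paw), called higher in DRG than in paw (4.20 ± 0.26, adjusted p = 3.44e-08). Abcc9, the receptor of muscle and vessels, was at 8.18 ± 0.535 (DRG), 18.8 ± 1.77 (spinal cord) and 95.2 ± 23.6 CPM (paw). Summed, the 6 smooth muscle and pericyte markers were also highest in paw, but the pericyte marker Pdgfrb was at 106 ± 18 (DRG), 56.8 ± 21.1 (spinal cord) and 89.7 ± 6.7 CPM (paw). The 7 skeletal muscle markers likewise summed highest in paw, at 14563 to 18148 CPM, beside 32.2 to 958 (DRG) and 13.8 to 61.5 (spinal cord). The part of either marker list in the Kcnj8, Kcnj11 and Abcc9 levels was not tested.

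The remaining inward rectifiers followed no single order. Kcnj12 was highest in DRG, at 40.6 ± 1.72 (DRG), 13.3 ± 1.54 (spinal cord) and 30.2 ± 3.68 CPM (paw), and Kcnj2 highest in paw, at 9.55 ± 1.72 (DRG), 12.2 ± 0.268 (spinal cord) and 38.2 ± 11.7 CPM (paw), with 7.58 to 10.7 CPM (DRG), 12 to 12.5 (spinal cord) and 30.2 to 51.7 (paw). Kcnj4 had 5.23, 7.0 and 5.74 CPM across DRG, 0.45, 0.0933 and 0.0574 across spinal cord, and 0, 0 and 0.0589 across paw, and DRG exceeded spinal cord by 4.84 ± 0.46 (adjusted p = 3.62e-06). Its call for spinal cord over paw rested on 12 reads against 1 and was lost without any one of spinal cord 1, paw 1 or paw 2 (adjusted p = 0.0909 to 0.239). Kcnj14 had 0.76, 0.772 and 0.842 CPM across DRG, 10.9, 10.4 and 9.18 across spinal cord, and 0.12, 0.247 and 0.353 across paw, and DRG over spinal cord was −3.67 ± 0.22 (adjusted p = 7.95e-08). Kcnj15 had 0.492, 0.193 and 0.198 CPM across DRG, 0.20, 0 and 0.172 across spinal cord, and 18.9, 13.3 and 16.5 across paw. Paw was far above both nervous tissues, with DRG over paw at −5.73 ± 0.38 (adjusted p = 4.98e-08). Kcnj13, an epithelial rectifier, was at 2.14 ± 0.551 CPM (DRG), 0.201 ± 0.225 CPM (spinal cord) and 1.24 ± 0.25 CPM (paw), but opposite-strand exons of Gigyf2 cover 49.1% of its exon bases. Kcnj1 had 1 read, in spinal cord.

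By the RefSeq order of protein-coding genes on the GRCm38.p6 assembly, 10 pairs of potassium channel genes lie next to each other, and 4 of the pairs had their highest mean in the same tissue. Among these 4, the pairs Kcnj5 with Kcnj1 and Kcna3 with Kcna2 each hold a gene with too few reads to test. No share for other pairs of genes was computed, so the count is descriptive only. Kcnj9 and Kcnj10 on chromosome 1 were both called highest in spinal cord. On chromosome 16 Kcnj6 was called highest in spinal cord and Kcnj15 in paw, and on chromosome 11 Kcnj16 in spinal cord and Kcnj2 in paw. Also on chromosome 11, Kcnip1 was called highest in spinal cord and Kcnmb1 in DRG. In the cluster on chromosome 6, Kcna5 was called highest in spinal cord and Kcna6 in DRG.

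Promoter windows are shown for the neighbours Kcnj10 and Kcnj9, both called highest in spinal cord, and for Kcnk18, Kcnk7 and Kcnj15, which were near 0 in the tissues they were not called highest in. Each window runs from 250 bases before to 50 bases after the start in RefSeq on GRCm38.p6, whereas the reads were aligned to mm9. Sequences are written 5′ to 3′ on the gene's strand, with every CG dinucleotide in capitals.
Kcnj10 (spinal cord, chr1:172340960-172341259, plus strand): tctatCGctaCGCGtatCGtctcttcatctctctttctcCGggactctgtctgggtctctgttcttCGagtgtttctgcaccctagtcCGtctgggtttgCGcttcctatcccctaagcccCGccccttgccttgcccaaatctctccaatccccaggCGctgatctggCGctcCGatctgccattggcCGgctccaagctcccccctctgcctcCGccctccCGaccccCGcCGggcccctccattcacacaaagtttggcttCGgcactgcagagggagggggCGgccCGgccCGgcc
Kcnj9 (spinal cord, chr1:172329273-172329572, minus strand): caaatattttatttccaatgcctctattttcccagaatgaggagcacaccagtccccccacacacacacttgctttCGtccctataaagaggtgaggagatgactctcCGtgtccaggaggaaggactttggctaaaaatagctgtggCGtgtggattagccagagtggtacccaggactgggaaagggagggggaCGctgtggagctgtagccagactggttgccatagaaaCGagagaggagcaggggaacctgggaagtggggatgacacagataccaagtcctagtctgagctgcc
Kcnk18 (DRG, chr19:59219398-59219697, plus strand): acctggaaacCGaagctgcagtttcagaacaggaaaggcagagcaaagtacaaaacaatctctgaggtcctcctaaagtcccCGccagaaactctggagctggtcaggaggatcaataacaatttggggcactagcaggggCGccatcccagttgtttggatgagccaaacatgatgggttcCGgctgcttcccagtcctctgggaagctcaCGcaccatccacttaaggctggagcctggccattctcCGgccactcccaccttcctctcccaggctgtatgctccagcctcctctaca
Kcnk7 (paw, chr19:5704221-5704520, plus strand): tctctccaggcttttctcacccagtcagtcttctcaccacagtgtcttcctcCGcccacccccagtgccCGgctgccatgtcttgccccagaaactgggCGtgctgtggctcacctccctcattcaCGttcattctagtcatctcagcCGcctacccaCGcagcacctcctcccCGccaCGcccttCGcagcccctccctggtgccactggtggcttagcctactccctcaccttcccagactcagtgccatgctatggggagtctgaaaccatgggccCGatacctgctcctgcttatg
Kcnj15 (paw, chr16:95257308-95257607, plus strand): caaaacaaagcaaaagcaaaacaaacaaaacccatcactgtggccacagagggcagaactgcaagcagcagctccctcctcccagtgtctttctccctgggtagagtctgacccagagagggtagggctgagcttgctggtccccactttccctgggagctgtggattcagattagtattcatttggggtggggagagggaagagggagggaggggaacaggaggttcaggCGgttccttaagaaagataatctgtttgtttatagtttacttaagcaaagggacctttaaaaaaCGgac

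The Kcnj10 window held 21 CG dinucleotides and the Kcnj9 window 5, and Kcnk18, Kcnk7 and Kcnj15 held 6, 10 and 2. The median over all 32851 RefSeq windows of this length was 7, and over the 95 windows of the 70 potassium channel genes with an entry it was 9. GGGCGG, read on both strands, was found 3 times in the Kcnj10 window and once in that of Kcnk7, and in 35.7% of all windows. TATAAA, read on both strands, was found once each in Kcnj9 and Kcnj15 and in 13.6% of all windows. CANNTG, which reads the same on both strands, was found once each in Kcnj9, Kcnk18 and Kcnj15 and in 72.3% of all windows. TGANTCA, likewise the same on both strands, was found in none of the 5 and in 7.81% of all windows. None of these motifs contains another, and a match describes the letters only.

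K2P channels summed to 233 ± 3.11 CPM (DRG), 263 ± 13.6 (spinal cord) and 137 ± 8.17 (paw). Kcnk18, the TRESK channel of nociceptors, had 11.9, 8.54 and 15.3 CPM across DRG, 0, 0.0467 and 0 across spinal cord, and 0, 0 and 0 across paw. DRG held 752 of its reads, spinal cord 1 and paw 0. Against the 1 read in spinal cord DRG had a ratio of 699 (95% counting interval 125 to 27700), and DRG was at least 198-fold higher than paw, where no read was found. Its mechanically and thermally gated relatives were not called highest in DRG. Kcnk2 was at 22.6 ± 1.08 (DRG), 34.3 ± 3.5 (spinal cord) and 5.26 ± 0.536 CPM (paw) and called highest in spinal cord. Kcnk4 was at 7.52 ± 1.55 (DRG), 5.71 ± 1.36 (spinal cord) and 0.722 ± 0.42 CPM (paw), with no call between DRG and spinal cord (adjusted p = 0.265), and shares 13.1% of its exon bases with Catsperz on the same strand. Kcnk10 was under 5 CPM in all tissues, and also had no call between DRG and spinal cord (adjusted p = 0.612).

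Kcnk1 was the K2P gene with the most CPM in DRG and spinal cord, at 120.0, 120.2 and 115 CPM across DRG, 121, 138 and 121 across spinal cord, and 23.8, 23.1 and 21.3 across paw. Its nervous tissues were not called different (−0.10 ± 0.09, adjusted p = 0.353) and both lay above paw. Kcnk3, the acid-sensitive leak channel, was at 18.9 ± 2.5 (DRG), 51.1 ± 9.25 (spinal cord) and 4.41 ± 0.502 CPM (paw) and called highest in spinal cord. Kcnk13, a leak channel known from microglia, was at 16.4 ± 1.79 (DRG), 23.8 ± 1.87 (spinal cord) and 1.83 ± 0.288 CPM (paw), and its DRG over spinal cord call (−0.54 ± 0.13) was lost with DRG 1 and 2 left out (−0.42, adjusted p = 0.102). The 6 microglia markers summed to 144 to 157 CPM (DRG), 361 to 369 (spinal cord) and 184 to 201 (paw), with none at 0 reads, and their part in this was not tested. Its relative Kcnk12 had 7.64, 8.06 and 7.58 CPM across DRG, 5.8, 5.69 and 8.09 across spinal cord, and 0, 0 and 0.0589 across paw, and no call was made between DRG and spinal cord (adjusted p = 0.292). Kcnk5 was at 22.7 ± 6.03 (DRG), 6.95 ± 2.71 (spinal cord) and 28.5 ± 4.26 CPM (paw). Its spinal cord libraries 1 to 3 stood at 5.8, 4.99 and 10.0 CPM, and DRG and paw were not called different (adjusted p = 0.25).

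In paw Kcnk6 had the most CPM of the K2P genes, whereas the mean of Kcnk7 (20.2 CPM) lay below that of Kcnk1 (22.7 CPM). Kcnk6, a two-pore channel of endosomes and lysosomes, had 2.82, 2.22 and 2.03 CPM across DRG, 3.35, 3.17 and 3.79 across spinal cord, and 59.7, 49.9 and 50.4 across paw. Every paw library was above every other library, and DRG over paw was −4.49 ± 0.15 (adjusted p = 1.38e-10). Its call for DRG over spinal cord (−0.54 ± 0.16, adjusted p = 0.0143) was lost without DRG 2 or 3 or spinal cord 3 (adjusted p = 0.0541 to 0.0604) and by limma-voom (adjusted p = 0.0641). Kcnk7, a subunit not known to carry current alone, had 0.0894, 0.145 and 0.149 CPM across DRG, 0.55, 0.42 and 0.402 across spinal cord, and 21.7, 20.6 and 18.3 across paw, and DRG over paw was −7.25 ± 0.23 (adjusted p = 1.03e-10). Its DRG over spinal cord call (−1.81 ± 0.36) rested on 8 and 27 reads and was lost with DRG 1 and 2 left out (adjusted p = 0.0678). Per kilobase of exon these genes stood just behind Kcna1 in paw, with 14.7 CPM per kb for Kcna1, 12.9 CPM per kb for Kcnk7 and 12.8 CPM per kb for Kcnk6. The remaining K2P genes had few reads. Kcnk9 had 9 (DRG), 23 (spinal cord) and 0 reads (paw). Kcnk15 had 0 (DRG), 1 (spinal cord) and 0 reads (paw). Kcnk16 had 15 (DRG), 0 (spinal cord) and 1 reads (paw), and none of these 3 was tested.

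**Figure D4:**
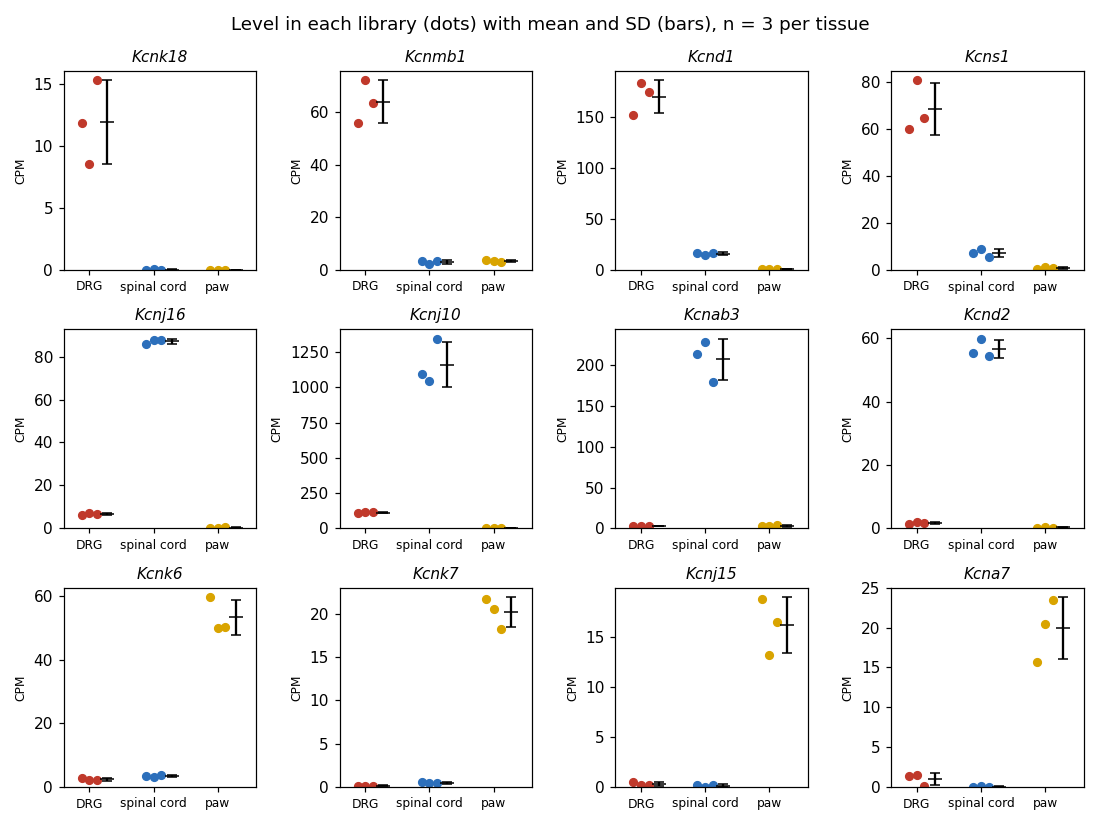
Level in CPM of 12 genes in each library (dots) with mean and SD (bars), n = 3 per tissue, in DRG, spinal cord and paw from left to right. The top row shows genes with every DRG library above all others, the middle row genes with every spinal cord library above all others, and the bottom row genes with every paw library above all others.

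A pair of symbols encode no channel. Kcnq1ot1, the long RNA transcribed against Kcnq1, had 7.78, 6.71 and 6.73 CPM across DRG, 13.5, 11.1 and 11.3 across spinal cord, and 12.1, 12 and 12.3 across paw. It was called lower in DRG than in spinal cord (−0.76 ± 0.13) and than in paw (−0.78 ± 0.13), whereas Kcnq1 was called highest in paw. Kcnrg, a relative of channel assembly domains, had 17 (DRG), 24 (spinal cord) and 163 reads (paw) and was called highest in paw.

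Of 14 channel partners without a Kcn symbol, 5 were called higher and 7 lower in DRG than in spinal cord, where 29.0% and 30.6% of all genes were. In DRG against paw 10 were higher and 2 lower (40.8% and 39.7% of all genes), and in spinal cord against paw 12 and 2 (41.7% and 39.9%). Dpp6 and Dpp10, which join Kv4 channels, stood at 556 ± 50.1 (DRG), 436 ± 6.36 (spinal cord) and 1.14 ± 0.398 CPM (paw) for Dpp6 and 127 ± 9.72 (DRG), 72.3 ± 4.45 (spinal cord) and 0.199 ± 0.122 CPM (paw) for Dpp10. DRG exceeded spinal cord for both, by 0.35 ± 0.13 and 0.82 ± 0.12, and both were lowest in paw. The Dpp6 call between DRG and spinal cord was lost without any one of DRG 2 or 3 or spinal cord 1 or 2 (adjusted p = 0.0715 to 0.0903) and with upper quartile factors (adjusted p = 0.0649). Amigo1, a partner of Kv2, was at 246 ± 14 (DRG), 106 ± 15.8 (spinal cord) and 22.3 ± 2.05 CPM (paw) and likewise highest in DRG (1.22 ± 0.11 over spinal cord). Lrrc26, a gamma subunit of BK channels in secretory epithelia, had 1 (DRG), 0 (spinal cord) and 915 reads (paw). Cntnap2, which holds Kv1 channels beside nodes, was at 153 ± 10.6 (DRG), 72.1 ± 1.29 (spinal cord) and 6.87 ± 2.14 CPM (paw), with DRG above spinal cord by 1.09 ± 0.16.

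Libraries of a tissue mostly kept close together. Among genes at 5 CPM or more, the median coefficient of variation was 13.1% over 54 genes in DRG, 11.1% over 53 in spinal cord and 16.1% over 32 genes of paw. More than 2-fold between the highest and lowest library were, among others, Kcna2 (2.55-fold) in DRG, Kcnk5 (2.01-fold) in spinal cord and Kcne1l (3.77-fold) in paw. For Kcna2 DRG 3 was the highest DRG library and DRG 2 the lowest.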

How the data were processed

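RNA of 3 tissues, 3 libraries each, was prepared from about 500 ng of total RNA with oligo-dT selection and a stranded dUTP kit and read as 50 bp single-end reads, per the labels' protocols. The build mm9 and the tools bcl2fastq, TopHat2 and HTSeq are named per the submitters' processing notes. Their versions, the gene models and whether counting used strand are not stated there. For each library the deposited values are raw whole-number read counts by gene symbol, with 5 summary rows that held 42.9 to 59.3% of each file and stayed out of library sizes and tests. Reads with several alignments are among them, so near-identical genes are uncertain.

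Counts of all 9 libraries were fitted by tissue, which left 6 residual degrees of freedom, in edgeR 4.0.16 (R 4.3.3), after filterByExpr and TMM scaling, with glmQLFit (robust) and glmQLFTest, and Benjamini-Hochberg adjustment over all genes tested. A standard error was taken as the absolute log2 fold change over the root of its F statistic. Folds against a tissue with no read are bounds computed against 3 reads over the group, and those against 1 to 3 reads have exact binomial 95% intervals. These intervals and floors hold counting error alone, because reads that carry no molecular identifier are not independent molecules. CPM per kb uses exon lengths of GENCODE M21 (GRCm38) for 95 of 95 symbols, which are not the authors' gene models. Exon overlaps come from the same annotation. Promoters come from RefSeq GRCm38.p6 and matched 70 of 95 symbols.

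Groups are the tissues given in the titles. No library was a repeat deposit of another of its tissue, as judged by counts that differed beyond sampling noise (chi-square per degree of freedom 7.30 to 36.7). The members, lists and marker genes were chosen with earlier results of these data known. Named are the genes with a mean of at least 5 CPM in a tissue, except some that are not reported here and are left out of the figures. Values per library are given for the 8 largest called changes in each direction and comparison (mean of 5 CPM or more on the higher side), and for the most expressed gene of each family. The alternatives were RLE and upper quartile factors, no low-count filter, at least 10 reads in 3 libraries, DESeq2 1.42.0, limma-voom 3.58.1, only the 2 tissues compared, the replicate number as a block, leaving out each library, and leaving out 2 pairs of libraries. The functions were also run on simulated counts in which far fewer genes differed than were called here. That run therefore does not assess the scaling or the calls in these data.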

Additional observations from a re-analysis of the deposited data

How the results depend on the processing

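The counts of called potassium channel genes stayed within 1.5 times of the reported ones under all alternatives run. With 1 library left out, genes called higher in DRG than in spinal cord numbered 33 to 36 and lower 27 to 32, those for DRG over paw 61 to 62 and 17 to 18, and those for spinal cord over paw 57 to 60 and 17 to 19. Genes called highest in DRG numbered 26 to 29, in spinal cord 22 to 26 and in paw 13 to 14. Under the other settings the same counts ran from 30 to 37, 26 to 33, 59 to 63, 16 to 18, 56 to 61, 17 to 20, 25 to 30, 21 to 27 and 12 to 14. Calls that depended on 1 library stand beside the genes they concern, apart from these. Without 1 library Kcnh8 (0.0537 to 0.0714) and the partner Lrrc52 (0.0543 to 0.0756) lost spinal cord over paw, and the partner Ank3 (0.0715 to 0.0766) lost DRG over spinal cord. Gained were spinal cord over paw for Kcnh3 (0.0307) and Kcnh7 (0.0259 to 0.0324), DRG over paw for Kcnh4 (0.0153 to 0.0487) and Kcnj13 (0.0338), and DRG over spinal cord for Kcnq3 (0.0353), all as adjusted p. DRG over spinal cord of the partner Cntn2 turned to 0.29 with DRG 2 and spinal cord 3 left out. Lrrc52, Ank3 and Cntn2 were singled out after their values were seen. With no low-count filter Kcnab1 (adjusted p = 0.0588) and Kcnh3 (adjusted p = 0.0549), and with only both tissues compared Kcnk6 (adjusted p = 0.0541) and Kcnh3 (adjusted p = 0.0702), lost the call for DRG over spinal cord. Upper quartile factors moved the median log2 fold change of all genes for DRG over paw to −0.10. With 2 DRG libraries left out a lone DRG library is assumed to vary like the other tissues.

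Deviations from the tissue means of libraries with the same replicate number had correlations of −0.13 to 0.271 over 9 pairs, 2 of them above 0.1. Libraries with different numbers had correlations of −0.447 to 0.341 over 18 pairs, 4 of them above 0.1. With 3 libraries per tissue these correlations cannot decide whether same-numbered libraries share an animal. With the number as a replicate block DRG over spinal cord gave 36 higher and 31 lower calls, DRG over paw 61 and 17, and spinal cord over paw 59 and 18, and 29, 25 and 13 were called highest in DRG, spinal cord and paw. With the block 2 calls were lost (Kcnj4 in spinal cord over paw and Kcns2 in DRG over spinal cord) and 2 gained (Kcnt1 in DRG over spinal cord and Kcnh7 in spinal cord over paw). Depth limits the genes under 3 reads a library, which cannot be told from absent.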

Other observations

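Some partner genes of the same channel stood far apart in level. Per kilobase of exon Kcna2 stood at 0.657 CPM per kb in DRG and Kcna1 at 140.0 CPM per kb, and Kcnma1 at 0.296 CPM per kb and Kcnmb1 at 15.2 CPM per kb. The authors' gene models are not stated, and their part in these levels was not tested.

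Promoter windows of genes called highest in DRG held a median of 17 CG dinucleotides (28 windows of 20 genes), those of spinal cord 6.5 (32 windows of 18 genes) and those of paw 9 (12 windows of 11 genes), beside 7 over all windows. Fewer than 5 CG were held by 17.9%, 31.3% and 33.3% of these windows and by 38.0% of all windows. Genes with several windows weigh more than once in these values, and no test was made.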
